A study of Homo sapiens with 12 samples.

Results

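Untreated NT2/D1 (NTERA2) cells with a hairpin RNA that targets ZRF1 (shZRF1) were set against untreated NT2/D1 cells with a random hairpin (shRandom). These are the 6 arrays titled for 0 h, out of 12 in the series, and they were chosen by their titles. Each 2-colour Agilent expression array held shZRF1 RNA in one channel and shRandom RNA in the other. There were 3 biological replicates, each on a forward array (Cy5 for shZRF1) and a dye-swapped one (Cy3 for shZRF1). The other 6 arrays compared the same lines after 3 h in 0.01 µM retinoic acid. All cells grew in DMEM with fetal bovine serum, and all carried a hairpin, so no array held unmodified cells. Titles name a single knockdown line and no further hairpin, whereas the cell line field numbers it anew from sample to sample; it was treated as 1 line, and the labels do not say whether either line was a clone. The series places the replicates on different days but does not tie a number to a day, so p-values measure the spread between these samples.

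NT2/D1 is a human embryonal carcinoma line, the malignant counterpart of the early embryo's pluripotent cells, and it turns to neural differentiation under retinoic acid. ZRF1, whose gene symbol is DNAJC2, has a J-domain that stimulates Hsp70 chaperones. With HSPA14 it forms the ribosome-associated complex, which helps new proteins fold as they leave the ribosome. It has also been described on chromatin, where it binds histone H2A that Polycomb repressive complex 1 has ubiquitinated. The arrays asked which genes differ between the lines before the retinoic acid signal arrives.

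Every value below is a log2 ratio of shZRF1 over shRandom RNA, so a positive value means more RNA in the knockdown, after the sign of the swapped arrays was turned. Only ratios were deposited. Levels cannot be compared between genes, and whether a probe lay above background was not tested. For 18646 genes both arrays of a replicate were averaged, and a gene passed the test where its limma p-value, after Benjamini-Hochberg adjustment over the 18646, was under 0.05. Replicate averages correlated across genes at 0.469 to 0.563, whereas both arrays of the same replicate, once turned, correlated at -0.114 to -0.076; the orientations thus disagreed for many genes. These coefficients describe the arrays, since genes are no independent replicates. The swapped array of replicate 2 had a 1st to 99th percentile range of 1.70, against 0.756 to 0.990 on the other 0 h arrays, and is called the wide array here.

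The targeted gene came first, as a check of the labels and of the direction of the ratios, which no label states. The directions given for other genes lean on DNAJC2 being lower in shZRF1 cells. On the forward arrays of replicates 1, 2 and 3, DNAJC2 stood at -0.58, -0.61 and -0.55. On the turned swapped arrays it stood at -0.57, -1.41 and -0.49. Its RNA was thus lower in shZRF1 cells on 6 of 6 arrays, with the wide array far below the other 5. The mean log2 ratio was -0.70 ± 0.27 (SD, n = 3), or 1.62-fold less RNA in shZRF1 cells, from 1 probe, and it did not pass the test (limma adjusted p = 0.106). It passed when 0 h was fitted alone (adjusted p = 0.0212). It also passed in a fit of single arrays with dye coefficients that left out the wide arrays of both times, at -0.55 (adjusted p = 1.14e-05).

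The test was passed by 1271 of 18646 genes (6.82%), of which 545 were higher in shZRF1 cells (2.92%) and 726 lower (3.89%). Most changes were small. The median absolute log2 ratio was 0.19 among the genes that passed and 0.04 over all genes, and only 13 higher and 9 lower genes exceeded 1.5-fold. All 6 arrays had the same sign for 1095 of the 1271 genes (86.2%), against 2910 of all 18646 (15.6%). The 1271 genes were chosen on these same arrays, so nothing is read from the higher share. The number that passed rested on every replicate, since it was 37, 60 and 57 without 0 h replicate 1, 2 and 3 (0.198%, 0.322% and 0.306% of all genes). Without 3 h replicates 1, 2 and 3, which share in the estimate of the spread, it was 2396, 712 and 860. With a 0 h replicate left out so few genes passed that low counts are given for every list below. Those counts describe the loss over all genes and say little about a list. With the replicate number as a block 0 genes passed in limma (3257 at an unadjusted p under 0.05), although the numbers were not found to pair the samples.

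**Figure D1:**
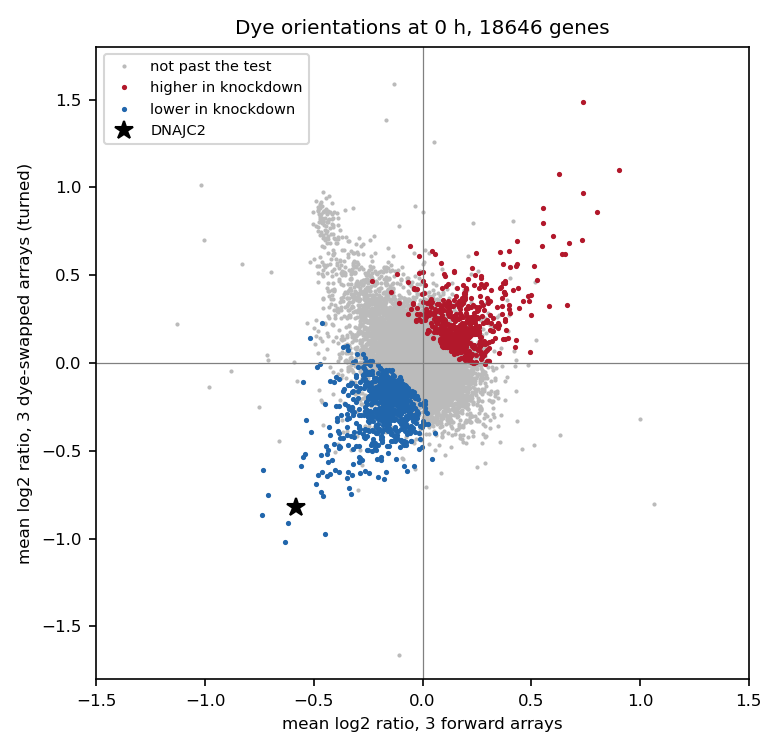
Mean log2 ratio (shZRF1 over shRandom) on the 3 forward arrays, x axis, against that on the 3 turned dye-swapped arrays, y axis, 1 point per gene. Red points passed the test higher in the knockdown, blue points lower, grey points did not pass, and the star is DNAJC2, which lies at -0.58 and -0.82; 7 genes lie beyond the axes.

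Among the highest genes was a pair from the NLRP family of cytoplasmic NOD-like receptors. NLRP2, which is part of a maternal protein complex of the oocyte and early embryo, stood at 0.68, 0.77 and 0.77 on the forward arrays and at 1.14, 2.29 and 1.04 on the turned swapped arrays. Every array was above 0, and the wide array was the highest. The mean was 1.11 ± 0.36 (SD, n = 3), or 2.16-fold (limma adjusted p = 0.0409), the largest rise among genes that passed. NLRP2B, a copy of NLRP2 on the X chromosome, rose by 0.85 (adjusted p = 0.00545), and whether RNA of one gene bound the other's probe was not tested. NLRP7, a relative active in the oocyte, rose by 0.21, with 6 arrays between 0.16 and 0.29. Of 14 NLRP genes measured, 3 rose (21.4%) and 0 fell, where 2.92% of all genes rose and 3.89% fell. The median of the 14 was 0.03. With any 1 of the 0 h replicates left out, 0 to 1 of the 14 passed, where 0.198% to 0.322% of all genes did.

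The next genes of the 15 highest had different roles. HEY1, a transcriptional repressor that Notch induces, stood at 0.74, 0.82 and 0.85 on the forward arrays and at 0.74, 1.06 and 0.78 on the turned swapped arrays. These 6 values lay close together, and HEY1 passed at 0.83 ± 0.10 (SD, n = 3; limma adjusted p = 0.00394). TMEM204, a claudin-like membrane protein, was between 0.83 and 0.96 on 5 arrays and at 1.60 on the wide array, with a mean of 1.00 ± 0.22 (adjusted p = 0.0281). TMEM125, another membrane protein, was between 0.61 and 0.83 on 5 arrays and at 1.24 on the wide array, with a mean of 0.85. SHISA3, which blocks the maturation of WNT and FGF receptors, rose by 0.68, but its adjusted p of 0.0425 was near the threshold. HTR3C, a subunit of a serotonin-gated ion channel, rose by 0.72, and here the wide array, at 0.43, was the lowest.

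The remaining members of the 15 highest were as follows. MYH9, the heavy chain of non-muscle myosin IIA, rose by 0.72 and its 2 probes each stood above 0. TAGAP, a gene of activated T cells, rose by 0.66 over 3 probes. IGFBP7, a secreted protein that binds insulin-like growth factors, rose by 0.64. ASTE1, a nuclease linked to DNA break repair, had 6 arrays between 0.57 and 0.79 and a mean of 0.68. DHRS2, a mitochondrial short-chain dehydrogenase, and WFDC1, a secreted protein with a WAP domain, rose by 0.61 and 0.53. LINC02899, a long non-coding RNA, rose by 0.63 and HHIPL2, a protein related to a Hedgehog-binding protein, by 0.57. WFDC1 varied least of these, from 0.46 to 0.59 over the 6 arrays.

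Among the 15 lowest genes were 4 transcription factors. HESX1, a homeobox repressor needed for forebrain and pituitary, was at -0.65, -0.78 and -0.47 on the forward arrays and at -0.92, -1.24 and -0.89 on the turned swapped arrays. No array reached 0, and the mean of -0.83 ± 0.17 (SD, n = 3; limma adjusted p = 0.00913) was the lowest of all genes that passed. Its 2 probes were both lower, at -0.63 and -1.02. FOXL2, a forkhead factor of ovary and pituitary, fell by 0.59. PRDM13, which sets the fate of inhibitory neurons in spinal cord and retina, fell by 0.56, with 6 arrays between -0.68 and -0.40. EGR1, an immediate early zinc finger factor, fell by 0.54.

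A pair of mitochondrial enzymes was among the 15 lowest genes. PCK2, the mitochondrial enzyme that makes phosphoenolpyruvate from oxaloacetate, was at -0.63, -0.79 and -0.79 on the forward arrays and at -0.62, -1.30 and -0.67 on the turned swapped arrays. The mean was -0.80 ± 0.22 (SD, n = 3; limma adjusted p = 0.0394), with the wide array lowest. OXCT1, which lets mitochondria use ketone bodies, was between -0.49 and -0.41 on forward arrays and between -1.24 and -0.81 on turned swapped arrays. Both dye orientations gave OXCT1 as lower, with a mean of -0.71 ± 0.10. Of 19 genes of ketone and mitochondrial fuel use, 3 fell (PCK2, OXCT1 and PDK2, a kinase that restrains pyruvate oxidation, at -0.18) and 0 rose, and the median of the 19 was 0.01. The 3 that fell are 15.8% of the list, where 3.89% of all genes fell. Only 0 to 1 of the 19 passed with any 1 of the 0 h replicates left out.

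The other low genes were scattered in function. CRYGD, a gamma crystallin of the lens, had 6 arrays between -0.92 and -0.65 and a mean of -0.73 ± 0.12 (SD, n = 3; limma adjusted p = 0.00394). MX2, an interferon-induced GTPase with antiviral activity, fell by 0.77. ARHGAP36, which inhibits protein kinase A and activates GLI factors, fell by 0.67, with 6 arrays between -0.81 and -0.57. CCR7, a chemokine receptor of lymphocytes, fell by 0.54, SLC1A6, a glutamate transporter of Purkinje cells, by 0.57 and KCNJ2, an inward rectifier potassium channel, by 0.54. TNNT1, the slow skeletal troponin T, fell by 0.54, with -1.16 on the wide array and between -0.46 and -0.38 on the other 5.

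The 15 highest and the 15 lowest genes that passed had adjusted p between 0.00384 and 0.0425. As a group of 30 they had the same sign on 6 of 6 arrays, and 25 had their largest value on the wide array. All 30 also passed in the fit without the wide arrays and with 0 h fitted alone, where 15.2% and 10.2% of all genes passed, but they were chosen on these same arrays, so nothing is read from that. They passed in the same direction at 3 h, where 12.6% of all genes passed, from separate arrays of the same lines that share the fit. 21 of the 30 were measured by 1 probe, and in the other 9 every probe had the direction of the mean.

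**Figure D2:**
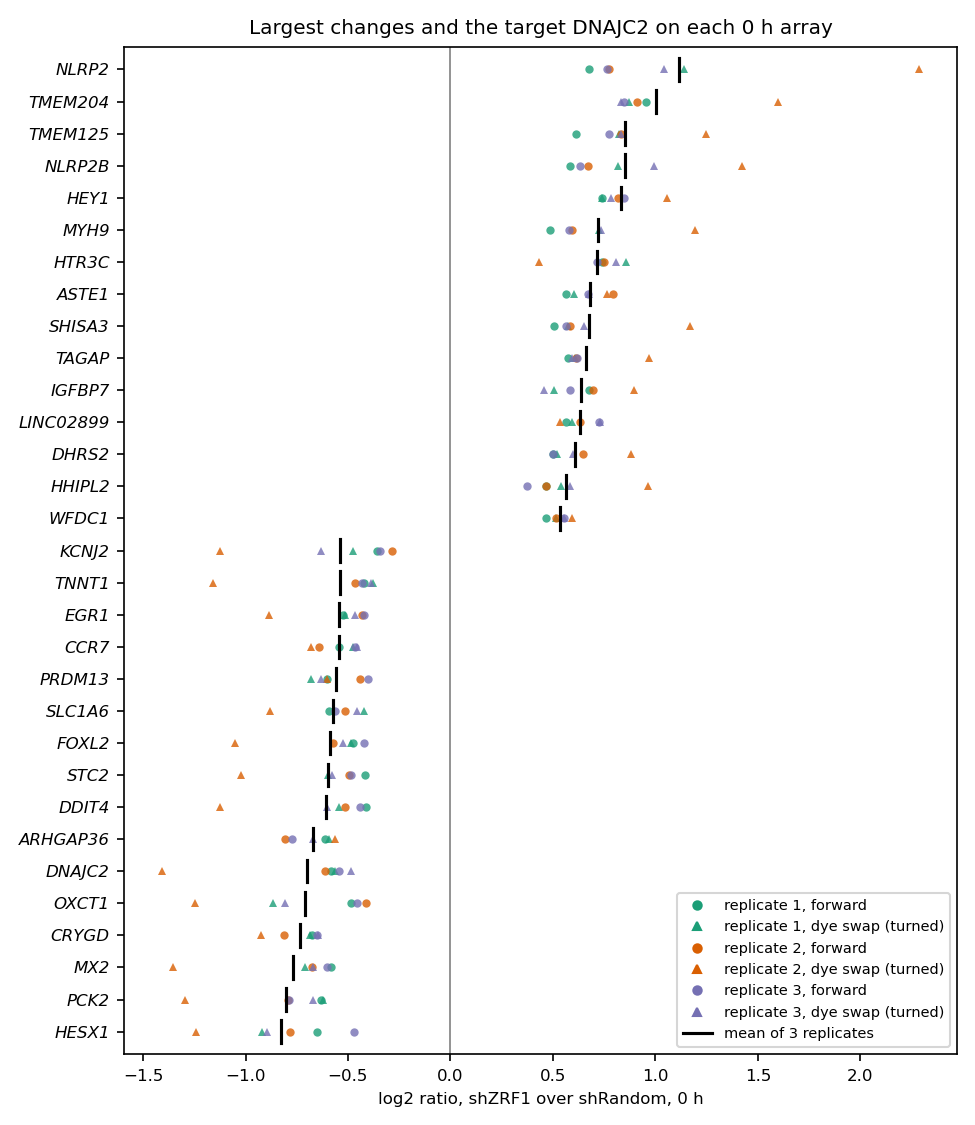
Log2 ratio of shZRF1 over shRandom at 0 h, x axis, for the 15 highest and 15 lowest genes that passed the test and for DNAJC2, 1 row per gene. Circles are forward arrays, triangles turned dye swaps, colours the 3 replicates and black bars the mean of the replicates; no gene crosses 0, and the orange triangles of the wide array lie outermost in most rows.

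Several low genes belong to the response to amino acid shortage. In that response the kinase GCN2 and other stress kinases favour translation of ATF4, a factor that induces amino acid transporters, amino acid synthesis, tRNA charging enzymes and stress regulators. Of 41 ATF4 target and response genes measured, 11 fell (26.8%) and 0 rose, and 31 of the 41 were below 0 in all 3 replicates (25.8% of all genes were). The median of the 41 was -0.12, against -0.002 over all genes, and on the 6 arrays it was between -0.19 and -0.08.

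PCK2, at -0.80, is 1 of the 11 and the lowest of the list. Among the stress regulators, DDIT4, an inhibitor of mTORC1, was at -0.41, -0.52 and -0.44 on the forward arrays and at -0.55, -1.12 and -0.60 on the turned swapped arrays, with a mean of -0.61 ± 0.19 (SD, n = 3; limma adjusted p = 0.0344). STC2, a secreted glycoprotein induced by stress, fell by 0.60 (adjusted p = 0.00744). DDIT3, the factor CHOP, fell by 0.41, and SESN2, a leucine-sensing inhibitor of mTORC1, by 0.39. CHAC1, which degrades glutathione, fell by 0.23, and NUPR1, a small chromatin protein, by 0.12. Each of these 7 genes was below 0 on 6 of 6 arrays.

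The transporters changed less. SLC1A4, a carrier of alanine and serine, fell by 0.18, with 6 arrays between -0.22 and -0.12. SLC7A11, the cystine carrier, fell by 0.19 and SLC7A1, a carrier of cationic amino acids, by 0.14. WARS1, which charges tryptophan tRNA, fell by 0.20. ASNS, asparagine synthetase, did not pass (adjusted p = 0.139) although its 6 arrays lay between -0.82 and -0.33. ATF4 itself was at -0.40, -0.31 and -0.36 on the forward arrays and at 0.35, 0.74 and 0.40 on the turned swapped arrays, so its mean of 0.07 (adjusted p = 0.725) averages opposite signs. Of the 41 genes, 25 fell and 0 rose without the wide arrays, where 8.1% of all genes fell, and 0 to 1 passed with any 1 of the 0 h replicates left out.

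The composite site to which ATF4 binds with a C/EBP partner was searched as TGATGNAA, on both strands, in the 250 bases before each gene's start in RefSeq's promoter table (GRCh38.p14). It was present in 1 of 9 members that fell and had a promoter there (11.1%), in 8 of 26 other measured members (30.8%) and in 1061 of 27305 promoters overall (3.89%). The stretch of CHAC1, which fell, and of ASNS, which did not pass, are shown with the match in capitals, each from 5′ to 3′ on the gene's strand, because they put a match beside both outcomes. CHAC1 is at chr15:40953232-40953299 on the plus strand, where the match is the reverse complement, and ASNS at chr7:97872439-97872506 on the minus strand.
CHAC1: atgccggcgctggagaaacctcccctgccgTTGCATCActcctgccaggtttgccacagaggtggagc
ASNS: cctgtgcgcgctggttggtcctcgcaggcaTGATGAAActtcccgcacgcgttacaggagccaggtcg
The CHAC1 match begins 209 bases before the annotated start and the ASNS match 68 bases before it. These arrays did not measure binding.

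Immediate early genes are switched on within minutes by growth factor signalling through ERK, and DUSP phosphatases and SPRY proteins feed back on that pathway. Of 36 such genes, 7 fell (19.4%) and 3 rose (8.33%), with a median of -0.004. The EGR zinc finger factors led the fall. EGR1 was at -0.53, -0.43 and -0.42 on the forward arrays and at -0.52, -0.89 and -0.46 on the turned swapped arrays, with a mean of -0.54 ± 0.11 (SD, n = 3; limma adjusted p = 0.00394). EGR4 fell by 0.32 and EGR3 by 0.26, each below 0 on 6 of 6 arrays. DUSP2 fell by 0.25 and DUSP4 by 0.17, and among AP-1 subunits JUNB fell by 0.16 and FOSL1 by 0.13. FOS, at 0.11 (adjusted p = 0.355), and JUN, at -0.0037 (adjusted p = 0.979), did not pass.

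The members that rose were feedback inhibitors of the same pathway. SPRY4 rose by 0.33, with forward arrays between 0.07 and 0.10 and turned swapped arrays between 0.39 and 0.90, so the size of its change differed by dye. DUSP6 rose by 0.18, with forward arrays between 0 and 0.08 and turned swapped arrays between 0.24 and 0.45, so its size differed by dye too. SPRED2 rose by 0.12. Of the 36 genes, 9 fell and 6 rose without the wide arrays, where 8.1% of all genes fell and 7.12% rose. With any 1 of the 0 h replicates left out, 0 to 2 of the 36 passed.

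The CArG box, bound by serum response factor, was found on either strand in 1 of 4 members that fell and had a promoter in the table (EGR1), in 0 of 20 other measured members and in 394 of 27305 promoters overall (1.44%). The EGR1 stretch is shown because the gene is the lowest of the list. It lies at chr5:138465344-138465435 of GRCh38.p14 on the plus strand, with 2 matches in capitals that begin 105 and 83 bases before the start.
EGR1: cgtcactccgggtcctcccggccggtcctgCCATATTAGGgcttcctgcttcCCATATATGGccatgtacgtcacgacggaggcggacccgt
No match in a window says only that these letters are not in it.

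Targets of p53, the tumour suppressor that answers DNA damage, passed only as lower. Of 26 measured, 5 fell (19.2%) and 0 rose, and the median was -0.10. TP53INP1, a stress-induced cofactor of p53, fell by 0.38 and SESN2, also an ATF4 target, by 0.39. ZMAT3, an RNA-binding protein, and SESN1, a stress-induced inhibitor of mTORC1, each fell by 0.14, and TNFRSF10C, a decoy receptor for TRAIL, by 0.11. CDKN1A, the p53 target that inhibits cyclin-dependent kinases, was at -0.09 and did not pass (adjusted p = 0.0948). In the fit without the wide arrays, where 8.1% of all genes fell and 7.12% rose, 14 of 26 fell and 0 rose. With any 1 of the 0 h replicates left out 0 of the 26 passed. Among 10 cell cycle inhibitors, CDKN2B, which inhibits CDK4 and CDK6, fell by 0.27, and CDKN3, a phosphatase of cyclin-dependent kinases, rose by 0.17. Of 34 proliferation genes, CCND2, cyclin D2, rose by 0.27 and CDK1, the mitotic kinase, by 0.19, and 0 fell. CDK1 averaged 0.03 on forward and 0.35 on turned swapped arrays. Of the inhibitors 20% passed and of the proliferation genes 5.88%, against 6.82% of all genes. Of both lists 0 genes passed with any 1 of the 0 h replicates left out.

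Cholesterol synthesis genes, which SREBP2 drives when sterols run low, passed only as higher. Of 21 measured, 5 rose (23.8%) and 0 fell, and the median was 0.11. On the forward arrays the list's median was 0.03, 0.09 and 0.03, and on the turned swapped arrays 0.10, 0.24 and 0.16. LSS, lanosterol synthase, was at 0.23, 0.20 and 0.23 on the forward arrays and at 0.28, 0.55 and 0.29 on the turned swapped arrays, with a mean of 0.30 (limma adjusted p = 0.0204). MSMO1 rose by 0.25, CYP51A1 by 0.20 and HSD17B7 by 0.14, all enzymes after lanosterol synthesis, and each was above 0 on 6 of 6 arrays. MVK, mevalonate kinase, passed at 0.19, with means of -0.12 on forward arrays and 0.50 on turned swapped arrays. INSIG1, which holds SREBP in the endoplasmic reticulum and is itself a target, had the highest value of the list at 0.39 and did not pass (adjusted p = 0.0689). Leaving out the wide arrays gave 11 higher and 0 lower genes, where 7.12% of all genes were higher, and leaving out any 1 of the 0 h replicates gave 0.

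Signalling pathways of early development showed a few members each. Among 23 Notch pathway genes, 2 rose (8.7%) and 4 fell (17.4%), where 2.92% of all genes rose and 3.89% fell. Beside HEY1, the receptor NOTCH1 rose by 0.30, but it stood at 0.95 on the wide array and between 0.06 and 0.33 on the other 5. HEYL, a HEY1 relative, fell by 0.27 and the ligands JAG2 and DLL3 by 0.18 and 0.14. DTX1, a ubiquitin ligase of the pathway, fell by 0.14, with probes at -0.25 and -0.03. With any 1 of the 0 h replicates left out, 1 of the 23 passed.

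Among 26 WNT pathway genes, SHISA3 rose and 4 fell (15.4%), all inhibitors of WNT signalling. FRZB fell by 0.37 and SFRP1 by 0.36, both decoys that bind WNT, SHISA2 by 0.16 and WIF1 by 0.12. Probes differed for SHISA2 (-0.26 and -0.06) and for WIF1 (-0.19 and -0.04). Of 19 NODAL, TGF-beta and BMP genes, 4 fell (21.1%) and 0 rose. FST, follistatin, which traps activin, fell by 0.35, and INHBA, which encodes the activin A subunit, by 0.27. BMP7, a bone morphogenetic protein, fell by 0.22 and CER1, a secreted inhibitor of NODAL and BMP, by 0.15. Leaving out any 1 of the 0 h replicates left 0 calls in the WNT list and 0 in the NODAL list.

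Lineage transcription factors moved both ways. Of 34 neural factors 3 fell and 3 rose (8.82% each). With HESX1 fell SIX3, a forebrain and eye factor, by 0.29, and OLIG1, a factor of oligodendrocytes, by 0.20. The OLIG1 probes differed, at -0.38 and -0.007. EN1, of midbrain and hindbrain, rose by 0.24, SIX6, of eye and pituitary, by 0.19 and PAX3, of dorsal neural tube, by 0.16. PAX3 had probes at 0.34, 0.12 and 0.03. Of 27 mesoderm and endoderm factors 2 rose (7.41%) and FOXL2 fell (3.7%). Of all genes 2.92% rose and 3.89% fell. HAND1, a factor of heart and extraembryonic mesoderm, was at 0.24, 0.55 and 0.34 on the forward arrays and at 0.43, 0.30 and 0.48 on the turned swapped arrays, with a mean of 0.39 (limma adjusted p = 0.00455). EOMES, a T-box factor of mesendoderm and trophoblast, had 6 arrays between 0.30 and 0.39 and a mean of 0.33. When any 1 of the 0 h replicates was left out, 0 of the neural factors and 1 to 2 of the mesoderm and endoderm factors passed.

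HOX genes, which set position along the body axis, are textbook Polycomb targets. Of 29 measured, 4 rose (13.8%) and 0 fell. HOXC9, at 0.43, HOXD11, at 0.40, HOXD10, at 0.37, and HOXD9, at 0.27, are posterior genes, and each was above 0 on 6 of 6 arrays. Their neighbours HOXD8 (0.07), HOXC8 (0.06) and HOXC10 (-0.02) did not pass, and the median of the 29 was 0.02. HOXA11-AS, an antisense RNA of the HOXA cluster on chromosome 7, rose by 0.42. Leaving out any 1 of the 0 h replicates left 0 to 1 of the 29 HOX genes.

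Before treatment, 3 of 21 measured genes of retinoic acid handling passed (14.3%), against 6.82% of all genes. In limma, 8 of the 21 had an unadjusted p under 0.05. STRA6, the cell's retinol importer, rose by 0.15, with values between -0.01 and 0.03 on forward and between 0.25 and 0.32 on turned swapped arrays. NRIP1, a corepressor of nuclear receptors, fell by 0.24 and CYP26A1, which breaks retinoic acid down, by 0.20. CRABP2, which carries retinoic acid to its receptor, was below 0 on 6 of 6 arrays, at -0.32, and did not pass (adjusted p = 0.0834). Of the 21 genes 0 passed when any 1 of the 0 h replicates was left out.

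The labelled cell type could not be checked, since a ratio between the lines does not give a marker's level in either. Of 10 defining markers of embryonal carcinoma cells 9 were measured and 0 passed (2 at an unadjusted p under 0.05 in limma). Their log2 ratios lay between -0.18 and 0.17, with 95% intervals that together reached from -0.31 to 0.50. The pluripotency factor POU5F1 was at -0.47, -0.28 and -0.42 on the forward arrays and at 0.46, 1.10 and 0.60 on the turned swapped arrays, so its mean of 0.17 (limma adjusted p = 0.554) again averages opposite dye effects. SOX2, its partner, was at -0.03 and NANOG, a homeobox factor of the same network, at 0.05. Among 21 pluripotency genes 1 passed (4.76%), against 6.82% of all genes. This was DPPA2, a chromatin factor of pluripotent and germ cells, which rose by 0.26 with 6 arrays between 0.03 and 0.40. It did not pass when any 1 of the 0 h replicates was left out.

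The machinery around ZRF1 itself gave few calls, but its lists are short and 6.82% of all genes passed, so few calls say little. Among 21 ribosome-associated chaperones 0 passed, and HSPA14, the partner of ZRF1, was at -0.10 (limma adjusted p = 0.408). At an unadjusted p under 0.05 there were 2 of the 21, DNAJC2 and HSPA4L (-0.07). HSPA8, the main cytosolic Hsp70, was between -0.39 and -0.23 on forward and between 0.50 and 1.03 on turned swapped arrays. Of 16 core members of Polycomb repressive complex 1, BMI1, a ring finger subunit, fell by 0.11, but its mean over forward arrays was 0.01, and it did not pass with any 1 of the 0 h replicates left out. Of 10 members of Polycomb repressive complex 2 and of 8 H2A deubiquitinases 0 passed, with 2 (EZH1 at -0.13 and EZH2) and 0 at an unadjusted p under 0.05. EZH2, the methyltransferase of complex 2, was at 0.09 (adjusted p = 0.146) and USP16, a deubiquitinase of H2A, at -0.04 (adjusted p = 0.448).

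Protein stress genes were also without calls, where 6.82% of all genes passed. In lists of 28 and 18 genes, 0 calls say little. Of 28 genes of the endoplasmic reticulum's unfolded protein response 0 passed (6 at an unadjusted p under 0.05), with CALR, a lectin chaperone, at 0.18 and CREB3L2, a membrane-bound factor, at 0.17. Of these 28, 5 rose without the wide arrays, where 7.12% of all genes rose. They were CALR, CREB3L2, DNAJB9, HYOU1 and PDIA4, which rose by 0.10 to 0.19. Of 18 cytosolic heat shock genes 0 passed (2 at an unadjusted p under 0.05, HSPA4L and BAG3). Of 69 ribosomal protein genes 0 passed (2 at an unadjusted p under 0.05, RPS2 and RPS28), with a median of 0.15 that came from medians of -0.38, -0.21 and -0.35 on the forward arrays against positive ones on the turned swapped arrays.

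Of 35 interferon-response genes, 5 fell (14.3%) and 1 rose. With MX2 fell TAP1, the peptide transporter of antigen presentation, by 0.38, and ISG15, a ubiquitin-like modifier, and IFITM1, a membrane restriction factor, by 0.25 each. MX1, the sister gene of MX2, fell by 0.21 and IFI27, a mitochondrial interferon-induced protein, rose by 0.21. IFITM1 was between -0.03 and 0 on the forward arrays and between -0.78 and -0.34 on the turned swapped arrays. Of the 35, 10 fell and 5 rose without the wide arrays, where 8.1% of all genes fell and 7.12% rose. With any 1 of the 0 h replicates left out, 0 to 1 of the 35 passed.

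Markers of other cell types were read in the same way. Of 27 fibroblast and mesenchymal markers 5 rose (18.5%) and 1 fell. THY1, a surface glycoprotein, rose by 0.28, the matrix genes COL5A2 and LUM by 0.27 and 0.25, LOX, which crosslinks collagen, by 0.20 and ENG, a TGF-beta coreceptor, by 0.19. COL1A1, the main collagen of fibroblasts, fell by 0.24. Of 20 epithelial and trophoblast markers CDH1, E-cadherin, rose by 0.22 and TFAP2A, a trophoblast and neural crest factor, by 0.20. Of 15 blood and immune markers HBB, beta globin, rose by 0.11 and CD8A, a T cell coreceptor, fell by 0.22. Of the fibroblast list 22.2% passed, of the epithelial list 10% and of the blood list 13.3%, against 6.82% of all genes. Of these markers 0 passed with any 1 of the 0 h replicates left out, and in such bulk RNA a change in the share of cells cannot be told apart from a change of RNA per cell.

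Among smaller families, 28 actomyosin and YAP genes held MYH9, ANKRD1, a YAP target, which rose by 0.15, and CCN2, another YAP target, which fell by 0.43. Of 22 germline genes MAEL, of the piRNA pathway, rose by 0.39, with 6 arrays between 0.23 and 0.58, and DPPA3, a maternal factor that acts on DNA methylation, fell by 0.30. Of 17 crystallin genes 2 fell, CRYGD and CRYBA1 (-0.18), and 2 rose, CRYM (0.22) and CRYBB1 (0.18). Among 29 hypoxia and glycolysis genes ALDOC, an aldolase, rose by 0.15, while BNIP3L, a mitophagy receptor, fell by 0.19 and PFKFB3, a glycolytic activator, by 0.14. Of actomyosin and YAP genes 10.7% passed, of germline genes 9.09%, of crystallin genes 23.5% and of hypoxia and glycolysis genes 10.3%. Of all genes 6.82% passed, and in lists this short such shares rest on few genes. With any 1 of the 0 h replicates left out, 0 to 1 of the actomyosin and YAP genes, 0 germline genes, 1 crystallin gene and 0 hypoxia and glycolysis genes passed.

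**Figure D3:**
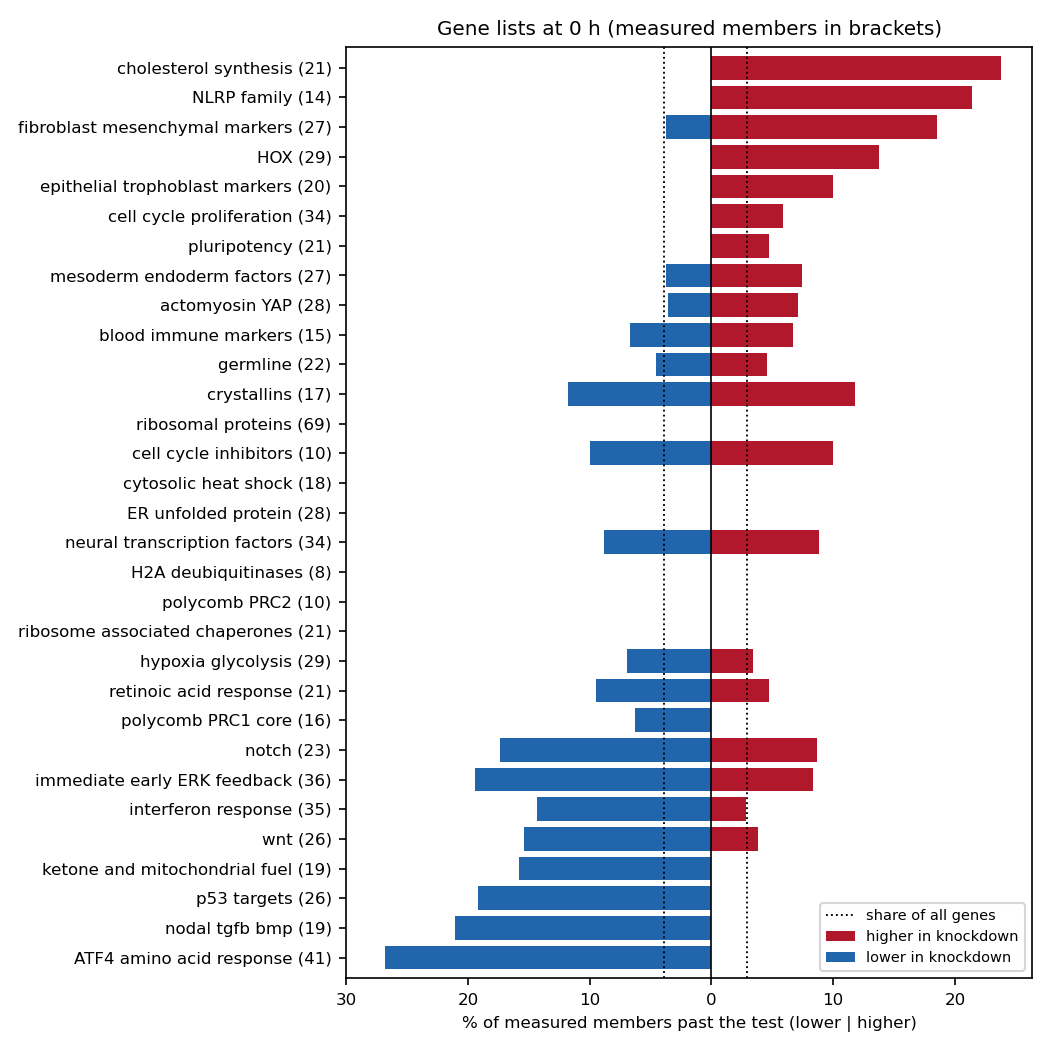
Share of measured members that passed the test, in %, higher in the knockdown to the right and lower to the left, for 31 gene lists with the number of members measured in brackets. Dotted lines mark the share of all genes, 2.92% higher and 3.89% lower; the ATF4 list reaches furthest left, at 26.8%, and cholesterol synthesis furthest right, at 23.8%.

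The genes that passed were not spread evenly over the chromosomes. On chromosome 7, where DNAJC2 itself lies, 81 of 887 genes rose (9.13%) and 12 fell (1.35%). The median of the chromosome was 0.05, and it was between 0.03 and 0.06 on each of the 6 arrays. SNHG15, a small nucleolar RNA host gene, had the highest value there at 0.48, and IL6, an inflammatory cytokine, stood at 0.36. NPTX2, a secreted neuronal pentraxin, had the lowest value of those that passed, at -0.51. Without the wide arrays 220 genes of chromosome 7 rose and 29 fell, in a fit where 7.12% of all genes rose and 8.1% fell. At 3 h the median of chromosome 7 was also 0.05.

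On chromosome 10 the genes that fell lay together. From TASOR2 to ZNF33A, 133 measured neighbours in annotation order, 47 fell (35.3%) and 2 rose, the processed pseudogene PPIAP30 and the antisense RNA ST8SIA6-AS1. Of the 133 genes 118 were below 0 (88.7%), against 51.3% of all genes. The median was -0.14, with -0.10, -0.09 and -0.08 on the forward arrays and -0.16, -0.20 and -0.13 on the turned swapped arrays. FZD8, a WNT receptor, had the lowest value of those that passed at -0.45, followed by MIR1915HG, a microRNA host gene, at -0.42, and BMI1 lies in the same stretch. On the rest of the chromosome 20 of 578 genes rose and 26 fell (4.5%), with a median of 0.01. This rest includes the genes before TASOR2, several of which also passed as lower, such as DIP2C (-0.32), GTPBP4 (-0.31) and WDR37 (-0.28). Others there, such as ADARB2 (0.002), did not pass. The running median has no value at the first genes of a chromosome, so where the stretch begins depends on the window and limit used. At 3 h the median of the stretch was -0.11, and without the wide arrays 75 of its genes fell, where 8.1% of all genes did.

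A shorter stretch of chromosome 4, 22 genes from CPLX1 to NAT8L, had 6 lower and 0 higher genes and a median of -0.11. NICOL1 fell by 0.33 and both FGFRL1, a decoy FGF receptor, and MAEA, a ubiquitin ligase subunit, by 0.16. On chromosome 7 there were 3 further stretches with raised medians, from FBXL18 to RPA3, HECW1 to ADCY1 and CPSF4 to TAF6, of 0.11, 0.10 and 0.11. From HECW1 to ADCY1 this came from the turned swapped arrays, at 0.09 to 0.19, while the forward arrays lay between -0.01 and 0.01. On chromosome 19 the 21 genes from ICAM5 to SMARCA4 had a median of 0.11, but this came from the turned swapped arrays, at 0.18 to 0.28, while the forward arrays lay between -0.04 and 0.01. Stretches were taken where a running median over 31 genes passed 0.075 for at least 20 genes, a limit chosen after the values were seen, and no test was made. Outside chromosome 7 and the stretch on chromosome 10, 2.63% of 17585 genes rose and 3.79% fell.

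**Figure D4:**
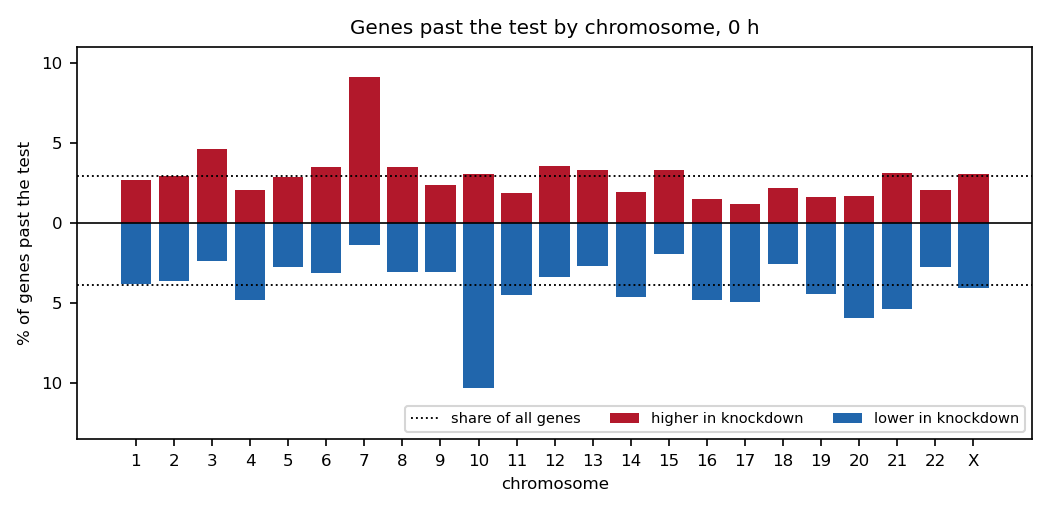
Share of genes that passed the test by chromosome, in %, higher in the knockdown above the line and lower below it. Dotted lines mark the share of all genes; chromosome 7 stands at 9.13% higher and chromosome 10 at 10.3% lower.

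**Figure D5:**
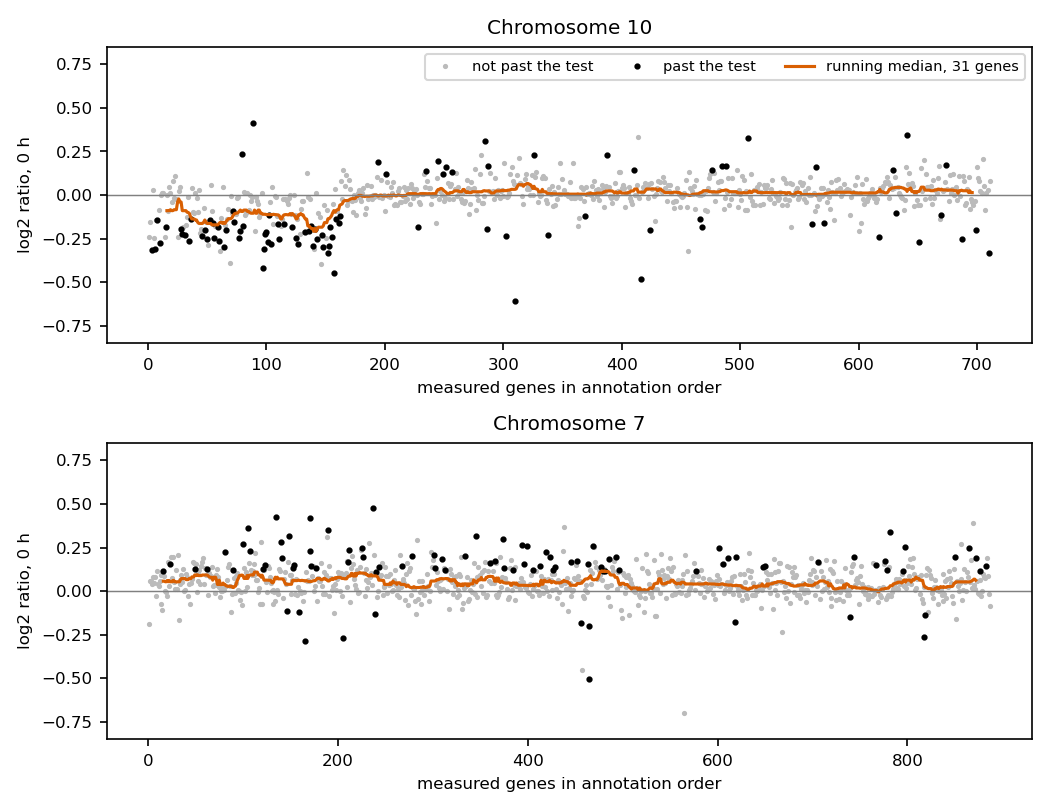
Log2 ratio at 0 h, y axis, of measured genes in annotation order along chromosome 10 and chromosome 7, x axis. Black points passed the test, and the orange line is the running median over 31 genes, which stays below 0 over the first part of chromosome 10 and near or above 0 along chromosome 7.

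A set of 27 genes (0.145% of all genes) passed without each single 0 h replicate, 16 higher and 11 lower. Of the 30 extreme genes 8 were in it, namely HEY1, TMEM125, ASTE1, LINC02899, DHRS2 and WFDC1 among the higher and CRYGD and ARHGAP36 among the lower. The others had smaller changes, and the SD of their replicate averages was between 0.008 and 0.085. Their single arrays differed more in some genes. GLIS1, a Krüppel-like zinc finger factor, rose by 0.36, with 6 arrays between 0.30 and 0.43. IL32, a cytokine, rose by 0.29, with 6 arrays between 0.12 and 0.48. RSPO1, which amplifies WNT signalling, fell by 0.46, with 6 arrays between -0.50 and -0.40. CHRDL2, a BMP-binding protein, fell by 0.41, TCHH, a structural protein of hair follicles, by 0.53 and DMRT2, a factor of muscle progenitors, by 0.37.

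Whether the effect before treatment differed from that after 3 h of retinoic acid was tested as the difference of both. Of 18646 genes 0 passed in limma (943 at an unadjusted p under 0.05, smallest adjusted p = 0.718). In the limma fit of single arrays without the wide arrays the smallest adjusted p was 0.0802, and after quantile normalization it was 0.0806. In both 0 genes passed, but the smallest value depended much on the processing. Among the 1271 genes that passed at 0 h, 1265 had the same sign at 3 h, as had 67.2% of all genes. DNAJC2 was at -0.96 at 3 h, a difference of -0.26 (adjusted p = 0.783). EGR1 was at -0.26 at 3 h and EGR3 at -0.002, and neither difference passed. Without 3 h replicate 3 the difference passed for 1 gene, UBE2E1, a ubiquitin-conjugating enzyme, at 0.64 after and -0.37 before retinoic acid (adjusted p = 0.0414).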

How the data were processed

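Total RNA of NT2/D1 cells was hybridised to 12 2-colour Agilent arrays, of which the 6 at 0 h are described and the 6 at 3 h share the fit. Per the labels' protocols, 500 ng of RNA went into each labelling and Cy5 was on channel 1 and Cy3 on channel 2. The deposited values were other than intensities: signed fold ratios of Cy5 to Cy3, in which a ratio below 1 is given as its negative inverse. No label states this unit. That they are signed fold ratios was read from the values, since 0 of them fell between -1 and 1. The direction, Cy5 over Cy3, was checked on DNAJC2, so DNAJC2 being lower is no separate result about it. The authors used limma, per the submitters' processing notes; its version, the background correction and the normalization are not given in the sources used here. Array medians lay between -0.0144 and 0.0144 and interquartile ranges were 0.154 or 0.155; at this rounding of the ratios, whether the authors scaled the arrays cannot be read from them.

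Ratios were converted to log2, and the sign of swapped arrays was turned by the dye labels. Of 41078 features 78 were controls. Of 41000 probes 29341 had 1 symbol, 33 several and 11626 none. Probes were averaged per gene, which gave 18646 genes, 11036 of them with 1 probe; 18609 were placed on a chromosome through RefSeq's GRCh38.p14 gene table by Entrez number. The 2 arrays of a replicate were averaged. limma 3.58.1 in R 4.3.3 (lmFit, eBayes) fitted a coefficient for each time over 6 replicates, with 4 residual degrees of freedom; adjusted p-values are two-sided, by Benjamini-Hochberg over all genes, with a threshold of 0.05. The script was tested on simulated data. No signal filter was possible without intensities, and precision is limited by how many arrays there are.

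Genes were named by a rule: DNAJC2, the 15 highest and 15 lowest genes that passed with the same sign in 3 of 3 replicates, and up to 6 members per list that passed, or the 2 with the smallest p where none did; for stretches of chromosomes, up to 3 genes. Genes named beyond it were chosen after their values were seen. The 31 lists, like the comparison itself, were chosen with earlier results of these data known, and are described by counts with no set test. Alternatives changed the samples, replicates, dye orientation, wide arrays, scaling and probe rule. The arrays called wide, 1 at 0 h and 2 at 3 h, had a 1st to 99th percentile range over 1.2 times that of the median array. The widest was the forward array of 3 h replicate 1, at 3.45 times. Replicates with the same number at both times deviated from their time means with correlations of 0.04, -0.03 and -0.30 across genes, so the numbers were not taken to pair samples.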

Additional observations from a re-analysis of the deposited data

How the results depend on the processing

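The number of genes that passed, 1271, was 0 with the replicate block, for which no pairing had been found, and between 37 and 2396 with 1 replicate of either time left out. It was 799 on forward arrays only (296 higher, 503 lower) and 4427 on swapped arrays only (2382 higher, 2045 lower), where 53.8% were higher against 42.9% in the test reported. It was 2224 with single arrays and dye coefficients, 2839 in that fit without the wide arrays, 2757 with arrays rescaled by their width, 2892 after quantile normalization, and 743 of 11036 genes with 1 probe, where fewer genes were tested. It was 1894 with 0 h alone and 1284 with the probe median. DNAJC2, at -0.70, was between -0.79 and -0.55 with 1 replicate left out. It passed without 3 h replicate 1 (-0.70, adjusted p = 0.0108), with 0 h alone (-0.70), on swapped arrays (-0.82), without the wide arrays (-0.55), after rescaling (-0.60) and after quantile normalization (-0.86). Of the 1271 genes, 38 changed sign on forward arrays only and 17 on swapped arrays only. Among the genes named by rule, on forward arrays only BMI1 (0.010), USP16 (0.047), MVK (-0.12), RPS28 (-0.18) and RPS2 (-0.18) changed sign, as did EZH2 (-0.0094) on swapped arrays only. The difference between the times passed for 0 to 1 genes with 1 replicate left out. For other changes the cause was not tested.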

Other observations

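Probes with no gene symbol in the annotation used were fitted on their own. Of 11626 such probes 74 passed the limma test (0.637%), 35 higher and 39 lower in shZRF1 cells. The highest was A_32_P227265, with replicate averages of 0.80, 0.67 and 0.84 and a mean of 0.77 (adjusted p = 0.0407). The lowest was A_23_P70968, with averages of -0.52, -0.72 and -0.51 and a mean of -0.58 (adjusted p = 0.0250). Their genes are not named here.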
